A study of Mus musculus with 12 samples.

Results

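The genes described are 6 C-type lectin or lectin-like genes of mouse chromosome 6, Clec7a, Clec9a, Clec12a, Clec1a, Clec2d and Clec2i, out of 27179 genes counted by RNA sequencing. They were chosen by symbol, with earlier results of these data known, and all 6 passed the filter on low counts. The libraries came from splenic conventional dendritic cells (cDC) of female C57/BL6 mice, either wild type (WT) or labelled zfp366-/- (KO). The product of Zfp366, DC-SCRIPT, is a zinc finger transcriptional regulator found in dendritic cells. The 4 groups, cDC1 WT, cDC1 KO, cDC2 WT and cDC2 KO, had 3 libraries each, made from polyA RNA of cells sorted after spleens were digested with collagenase and DNAse. Each of 6 mouse pools, 3 per genotype, gave 1 cDC1 and 1 cDC2 library. The labels used here give neither the age of the mice nor how the allele was made, and they name no gene, promoter or treatment beyond this genotype.

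Lectin-like receptors of this region carry an extracellular domain of the C-type lectin fold and a short cytoplasmic tail that sets their signalling. Clec7a (Dectin-1), the receptor for fungal beta-glucan, and Clec9a (DNGR-1), which binds filamentous actin of dead cells and marks cDC1, signal through the kinase Syk. Clec12a is an inhibitory receptor that recruits phosphatases and recognises uric acid crystals. Clec1a recognises melanin of fungal spores. Clec2d and Clec2i encode surface ligands of the NKR-P1 receptors, which are products of the Klrb1 genes nearby.

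On GRCm38 the members span 585 kb of chromosome 6. Clec2i (Entrez Gene 93675) lies at bases 128887587 to 128898168 and Clec2d (93694) at 129180615 to 129186535. Clec12a (232413) lies at 129349783 to 129365303, and Clec9a (232414) at 129408862 to 129424764. Clec1a (243653) begins 1.92 kb after Clec9a ends and runs from 129426684 to 129452000, and Clec7a (56644) follows 9.59 kb later at 129461591 to 129472785. Clec1a and Clec7a are on the minus strand and the other 4 on the plus strand. Members share little sequence with other genes. No 50-base stretch of Clec7a transcripts was found in another gene, and the share found elsewhere was 4.02% for Clec9a, 4.13% for Clec2i, 1.98% for Clec2d, 0.457% for Clec12a and 0.019% for Clec1a. The shared stretches of Clec9a all lie in Clec1b, with which it has 184 exonic bases in common on the same strand, and reads there could go to either gene. BC035044 overlaps Clec2i on the other strand without a shared exonic base, and the sources used here do not state whether counting used strand.

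Promoter windows from RefSeq (GRCm38.p6), each running from 250 bases before to 50 after an annotated start, were found for 5 members. They were searched on both strands for 4 motifs of factors active in dendritic cells. These were the PU.1-IRF composite element GGAANNGAAA, the IRF repeat GAAANNGAAA, the AP-1 site TGANTCA and the PU.1 site GAGGAAGT. The 3 windows shown belong to the member that rose in KO cDC1, to the other member that shares its motif, and to the cDC1 marker Clec9a. Capitals mark the match, and each sequence is written 5′ to 3′ on the strand of its gene. Clec7a is chr6:129472730-129473029 on the minus strand, Clec2i is chr6:128887337-128887636 on the plus strand and Clec9a is chr6:129408612-129408911 on the plus strand.
Clec7a: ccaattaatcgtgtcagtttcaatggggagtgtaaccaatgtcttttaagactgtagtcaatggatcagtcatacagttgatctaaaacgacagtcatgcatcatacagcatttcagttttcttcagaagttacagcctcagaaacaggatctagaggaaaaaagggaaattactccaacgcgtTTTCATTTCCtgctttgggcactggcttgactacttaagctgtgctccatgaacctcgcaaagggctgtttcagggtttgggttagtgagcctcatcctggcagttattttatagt
Clec2i: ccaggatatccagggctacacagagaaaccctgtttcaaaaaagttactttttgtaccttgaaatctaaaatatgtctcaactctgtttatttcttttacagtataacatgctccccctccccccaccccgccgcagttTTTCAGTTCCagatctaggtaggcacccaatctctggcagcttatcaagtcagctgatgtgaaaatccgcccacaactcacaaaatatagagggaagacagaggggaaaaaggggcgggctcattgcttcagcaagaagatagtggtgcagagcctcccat
Clec9a: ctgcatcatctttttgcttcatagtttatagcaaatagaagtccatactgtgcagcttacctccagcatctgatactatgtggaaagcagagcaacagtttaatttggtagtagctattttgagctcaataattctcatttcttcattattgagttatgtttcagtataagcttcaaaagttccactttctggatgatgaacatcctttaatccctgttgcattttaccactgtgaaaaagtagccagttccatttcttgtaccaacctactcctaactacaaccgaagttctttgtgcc

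Clec7a and Clec2i each held the composite element, read on the opposite strand as TTTCATTTCC in Clec7a and TTTCAGTTCC in Clec2i, at positions -66 and -111 from the start. Of 32851 promoter windows of this length, 2.72% hold this element. Clec2d held an IRF repeat at -189, as do 3.44% of windows, and Clec12a an AP-1 site at -213, as do 7.81%. No window of a member held the PU.1 site, which 3.2% of all windows hold, and the window of Clec9a held none of the 4 motifs. No member's window had more than 1 match. A match describes letters only; binding was not measured.

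Total counts ran from 11330503 to 36761685 per library, a 3.24-fold range. Levels are in CPM, the reads of a gene scaled to a common library total. Changes are log2 fold changes with their SE (standard error). Each adjusted p comes from the quasi-likelihood F test of edgeR, with Benjamini-Hochberg adjustment over 13415 genes and a threshold of 0.05. Subset markers followed the labels, as 9 of 10 cDC1 markers were higher in WT cDC1 and 10 of 10 cDC2 markers higher in WT cDC2. Of all genes 21.2% were called between the WT subsets. These lists, like the members and the gene lists below, were chosen with earlier results of these data known. They are therefore not an independent check of the labels, and the shares called are descriptions. Zfp366 itself stood at 152, 89.2 and 67.5 CPM in cDC1 WT and at 48.8, 48.4 and 45.4 CPM in cDC1 KO, lower in each KO library (-1.12, SE 0.27, adjusted p = 0.0326). In cDC2 it did not separate the genotypes (52.6 to 62.4 CPM in WT, 55 to 80.6 CPM in KO), so it does not check the genotype labels there. Counts per gene do not show which exons were read.

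The libraries labelled cDC2 WT replicate 1 and cDC2 KO replicate 1 went against their labels in genes that separate the other cDC2 libraries by genotype. Klri2 stood at 1.35 and 0.729 CPM in the libraries labelled cDC2 WT replicates 2 and 3 and at 82.3 and 87.3 CPM in those labelled cDC2 KO replicates 2 and 3, but at 72.4 CPM in the library labelled cDC2 WT replicate 1 and at 1.34 CPM in the library labelled cDC2 KO replicate 1. Klra17 showed the reverse, at 219 and 207 CPM against 19.8 and 22.4 CPM, with 35.9 CPM in the library labelled cDC2 WT replicate 1 and 216 CPM in the library labelled cDC2 KO replicate 1. Of 164 genes at least 4-fold apart the same way in the cDC2 pairs numbered 2 and 3, 16 (9.76%) had that sign in the pair numbered 1, whereas in cDC1 it was 445 of 497 (89.5%). All libraries were kept under their labels, and results that rest on cDC2 are given also without these 2 libraries where leaving them out changes the call or moves the value, an alternative chosen after the data were seen.

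**Figure D1:**
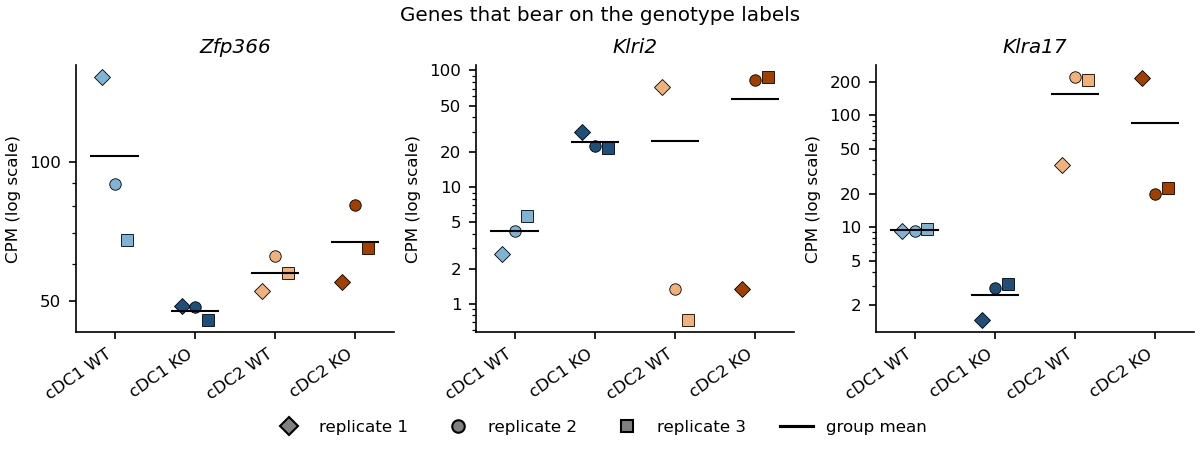
Level in CPM (vertical log axis) of Zfp366, Klri2 and Klra17 in each of the 12 libraries, by labelled group, with symbols for the replicate number and a line for the group mean. The diamonds of replicate 1 in cDC2 sit at the level of the other genotype for Klri2 (72.4 CPM in WT, 1.34 CPM in KO) and Klra17 (35.9 and 216 CPM).

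Clec7a was the lectin gene that rose in KO cDC1. It stood at 69.8, 18.1 and 19.4 CPM in cDC1 WT replicates 1, 2 and 3, and at 332, 292 and 294 CPM in cDC1 KO. All KO libraries were above all WT libraries, and WT replicate 1 was the highest of its group. Clec7a was 8.56-fold higher in KO (3.10, SE 0.47, adjusted p = 0.00188). Because RNA came from sorted cells in bulk, more cells with Clec7a and more Clec7a RNA per cell cannot be told apart. Clec7a was the 1 member of 6 that passed, where 5.32% of all genes tested did. Without cDC1 WT replicate 1 the change was 4.03 (adjusted p = 2.1e-05), and over 20 alternatives it stayed between 2.78 and 4.03 with an adjusted p of at most 0.0231.

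In cDC2 Clec7a was high in both genotypes. Its level was 390, 232 and 315 CPM in the libraries labelled cDC2 WT and 538, 382 and 351 CPM in those labelled cDC2 KO, so the genotypes overlapped. The change was 0.44 (SE 0.43, adjusted p = 1), and 0.42 (adjusted p = 0.903) without the 2 libraries numbered 1. The order of the group means was cDC2 KO (424 ± 100 CPM, SD, n = 3 in every group), cDC2 WT (313 ± 79.1), cDC1 KO (306 ± 22.4) and cDC1 WT (35.8 ± 29.5). The first 3 overlapped with their neighbours in this order, and cDC1 WT stood below all others. The KO effect was 2.66 larger in cDC1 than in cDC2 (SE 0.63, adjusted p = 0.0612), which did not pass. With mouse pools as a block, which pairs the doubted cDC2 libraries numbered 1 by label too, it was 2.95 and passed (adjusted p = 0.0389). It also passed on leaving out cDC1 WT replicate 1 (3.59, adjusted p = 0.000368), and it did not when the cDC2 libraries numbered 1 were left out (2.68, adjusted p = 0.106).

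The difference between subsets that WT mice showed for Clec7a was not called in KO mice. WT cDC1 were 8.74-fold below WT cDC2 (-3.13, SE 0.47, adjusted p = 0.000424). KO cDC1 were below KO cDC2 in every library, but the change of -0.47 did not pass (SE 0.43, adjusted p = 0.495). The mean of KO cDC1 was 97.9% of that of WT cDC2 (112% of the mean of the WT replicates 2 and 3), where WT cDC1 had 11.4%. The test of the difference between these subset contrasts is the same as that of the KO effects above.

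Some markers of other cells moved with Clec7a and others did not. All 10 cDC2 markers rose in KO cDC1, where 5.32% of all genes were called. Their summed level was 713 to 733 CPM in KO cDC1, 103 to 119 CPM in WT cDC1 and 4001 to 7644 CPM in cDC2. The summed level in KO cDC1 was thus 13.1% of that in WT cDC2, where S100a4 made up 60.7% of the sum. Single markers ran from 5.95% for S100a4 to 95.1% for Itgam, with a median of 20.5%. Against WT cDC2 replicates 2 and 3 alone the summed level was 13.3%. Monocyte markers summed to 1209 to 2756 CPM in WT and 3147 to 4339 CPM in KO cDC1, with Ms4a4c and Ccr2 higher and Treml4 lower in KO. Most of that sum was Nr4a1, an early response gene found in many cells, which did not pass (1396 and 2765 CPM, 0.99, adjusted p = 0.179). B cell markers summed to 77.4 to 111 CPM in WT and 318 to 393 CPM in KO. Fcrla carried the difference (42.3 and 296 CPM), while Ms4a1, which encodes CD20, averaged 47 and 46 CPM. NK cell markers summed to 79.9 to 101 and 156 to 183 CPM, mainly from Klrk1, and Ncr1 was below 1 CPM in every cDC1 library. Mean sums in WT and KO cDC1 were 234 and 227 CPM for macrophage markers, 160 and 142 CPM for plasmacytoid markers, 7.79 and 5.75 CPM for T cell markers, 13.3 and 8.27 CPM for neutrophil markers, and 86.3 and 42.7 CPM for erythroid and platelet markers. Within the macrophage list Cd163, a scavenger receptor gene, rose from 1.36 ± 0.204 to 25.8 ± 1.47 CPM (4.24, SE 0.45, adjusted p = 0.000155). Vcam1 of that list fell from 73.6 ± 7.98 to 40.4 ± 6.49 CPM (-0.87, SE 0.23, adjusted p = 0.0475). With all libraries no other macrophage marker passed (20% of 10 called, against 5.32% of all genes). Of 8 plasmacytoid markers 2 fell and 0 rose (25%), Ccr9 (-1.98, SE 0.47, adjusted p = 0.0287) and Pacsin1 (-3.19, SE 0.85, adjusted p = 0.0486). The part of these cells in the change of Clec7a was not tested beyond these values.

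**Figure D2:**
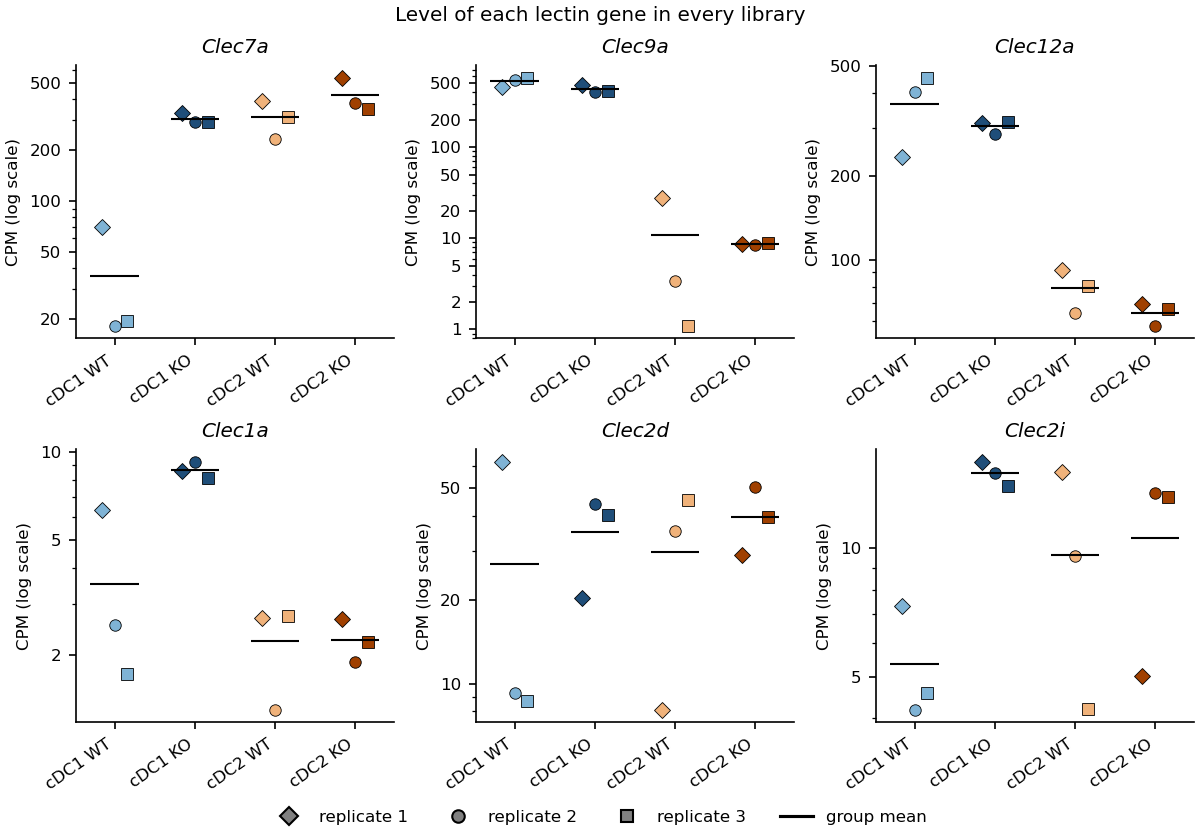
Level in CPM (vertical log axis) of each lectin gene in the 12 libraries, by labelled group, with symbols for the replicate number and a line for the group mean. Clec7a in KO cDC1 (292 to 332 CPM) lies within the range of cDC2, while Clec9a and Clec12a stay above cDC2 in both genotypes.

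Clec9a kept the pattern of a cDC1 gene in KO mice. Its level was 458, 542 and 578 CPM in cDC1 WT and 481, 401 and 411 CPM in cDC1 KO, and the genotypes overlapped. The change of -0.29 did not pass (SE 0.71, adjusted p = 0.87). WT replicates 2 and 3 were above every KO library, and only WT replicate 1 overlapped with them. Within replicates 2 and 3 the change was -0.49 and passed (adjusted p = 0.0425), as 47.8% of all genes did there. WT cDC1 were 47.7-fold above WT cDC2 (5.58, SE 0.87, adjusted p = 0.000531), and KO cDC1 were above KO cDC2 by 5.63 (adjusted p = 0.000783). The group means were 526 ± 61.5 CPM in cDC1 WT, 431 ± 44 in cDC1 KO, 10.8 ± 14.8 in cDC2 WT and 8.68 ± 0.278 in cDC2 KO. No cDC1 library overlapped with cDC2 in either genotype, and both subset calls held in 21 of 21 alternatives. Among cDC1 markers Xcr1, the chemokine receptor of cDC1, was at 871, 1068 and 1058 CPM in WT mice and at 502, 431 and 437 CPM in KO mice (-1.13, SE 0.56, adjusted p = 0.302). Of 10 cDC1 markers 1 fell in KO cDC1 (10%, against 5.32% of all genes), the integrin gene Itgae (-4.02, SE 0.66, adjusted p = 0.00296). Without the 2 cDC2 libraries numbered 1 Naaa fell as well (-0.85, SE 0.23, adjusted p = 0.0461). With all libraries Xcr1, Cadm1, Tlr3, Irf8, Naaa and Gcsam did not pass, yet each was lower in every KO than in every WT cDC1 library. Cd8a was higher in every KO library and did not pass. Such separation was seen in 26.9% of all genes.

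In cDC2 Clec9a was low, and it was highest in the library labelled cDC2 WT replicate 1. It stood at 27.9, 3.44 and 1.09 CPM in the libraries labelled cDC2 WT and at 8.64, 8.43 and 8.98 CPM in those labelled cDC2 KO. The library labelled cDC2 WT replicate 1 was above every KO library and the other two WT libraries were below them. With all libraries the change was -0.34 (SE 0.72, adjusted p = 1). Without the 2 cDC2 libraries numbered 1 it turned to 1.86 (SE 0.38, adjusted p = 0.0617), and the difference between the subsets' KO effects went from 0.06 to -2.15 (adjusted p = 0.0463). That difference was also -2.15 without the library labelled cDC2 WT replicate 1 alone (adjusted p = 0.0374). Cd8a, another cDC1 gene, stood at 62.2 CPM in the library labelled cDC2 WT replicate 1 and at 14.4 CPM in the library labelled cDC2 KO replicate 1. Irf8, Naaa, Gcsam, Xcr1 and Tlr3 were also highest in the library labelled cDC2 WT replicate 1 among the 6 cDC2 libraries. Cadm1, Itgae and Batf3 were highest in other cDC2 libraries, and Wdfy4 was lowest in the library labelled cDC2 WT replicate 1. Summed cDC1 markers in cDC2 ran from 879 to 1061 CPM in WT and from 992 to 1392 CPM in KO, and most of each sum was Wdfy4. Without Wdfy4 the sum was 346, 165 and 168 CPM under the WT label and 207, 170 and 154 CPM under the KO label. The 2 libraries numbered 1 were the highest of their groups. The part of cDC1 cells in the level of Clec9a was not tested.

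Clec12a was likewise higher in cDC1 than in cDC2, at a smaller ratio. It was measured at 235, 404 and 454 CPM in cDC1 WT and at 311, 284 and 313 CPM in cDC1 KO. The cDC2 libraries held 92.1, 64.3 and 80.2 CPM under the WT label and 69, 57.6 and 66.6 CPM under the KO label. The genotypes overlapped in both subsets, and the subsets in neither genotype. In order, the means were 364 ± 115 CPM in cDC1 WT, 303 ± 16.4 in cDC1 KO, 78.8 ± 13.9 in cDC2 WT and 64.4 ± 5.98 in cDC2 KO. WT cDC1 were 4.62-fold above WT cDC2 (2.21, SE 0.25, adjusted p = 4.9e-05) and KO cDC1 above KO cDC2 by 2.23 (adjusted p = 7.9e-05). The KO changes were -0.27 in cDC1 (SE 0.24, adjusted p = 0.6) and -0.29 in cDC2 (SE 0.24, adjusted p = 1). In cDC1 the overlap came from WT replicate 1, since WT replicates 2 and 3 were above every KO library. Within replicates 2 and 3 the change in cDC1 was -0.55 and passed (adjusted p = 0.00479), as 47.8% of all genes did there.

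Clec1a, which lies between Clec9a and Clec7a, was the member with the lowest counts. Its level was 6.32, 2.55 and 1.73 CPM in cDC1 WT and 8.59, 9.28 and 8.15 CPM in cDC1 KO. Every cDC1 KO library was above every cDC1 WT library, but the change of 1.29 did not pass (SE 0.45, adjusted p = 0.135). It was 2.02 without cDC1 WT replicate 1 (adjusted p = 0.00609). In cDC2 it stood between 1.3 and 2.73 CPM in all 6 libraries, with means of 2.24 ± 0.817 CPM under the WT label and 2.26 ± 0.379 CPM under the KO label. KO cDC1 were above KO cDC2 by 1.94 (SE 0.45, adjusted p = 0.012), a call that was lost without cDC2 KO replicate 2 (adjusted p = 0.0618) or 3 (adjusted p = 0.0529). WT cDC1 were above WT cDC2 by 0.66, which did not pass (adjusted p = 0.344).

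The NKR-P1 ligand gene Clec2i stood at 7.31, 4.18 and 4.57 CPM in cDC1 WT and at 16, 15 and 14 CPM in cDC1 KO. The genotypes did not overlap, and the change of 1.49 missed the threshold (SE 0.46, adjusted p = 0.088). It passed in 7 of 20 alternatives, among them the fit without the 2 cDC2 libraries numbered 1 (1.49, adjusted p = 0.0163) and the fit on cDC1 alone (1.47, adjusted p = 0.0195). In cDC2 the values were 15.1, 9.62 and 4.19 CPM under the WT label and 5.02, 13.5 and 13.2 CPM under the KO label. The libraries labelled replicate 1 were the highest WT and the lowest KO library. By mean, cDC1 KO came first (15 ± 0.977 CPM), then cDC2 KO (10.6 ± 4.81), cDC2 WT (9.63 ± 5.44) and cDC1 WT (5.35 ± 1.71), of which the last 3 overlapped with their neighbours. The change was 0.12 (SE 0.45, adjusted p = 1) with them and 0.93 (SE 0.38, adjusted p = 0.432) without them.

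The other ligand gene, Clec2d, varied within each group, and all 4 groups overlapped with their neighbours in order of mean, from 39.7 ± 10.7 CPM in cDC2 KO to 26.8 ± 30.8 CPM in cDC1 WT. It was at 62.4, 9.34 and 8.73 CPM in cDC1 WT and at 20.4, 43.9 and 40.3 CPM in cDC1 KO. In cDC2 it was at 8.1, 35.3 and 45.4 CPM under the WT label and at 29, 50.4 and 39.7 CPM under the KO label. Replicate 1 was the highest library of cDC1 WT and the lowest of the other groups. The change in cDC1 was 0.38 (SE 0.72, adjusted p = 0.821). It became 1.95 when cDC1 WT replicate 1 was left out (adjusted p = 0.0377), and -0.04 when replicate 3 of that group was. No comparison called Clec2d with all libraries.

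**Figure D3:**
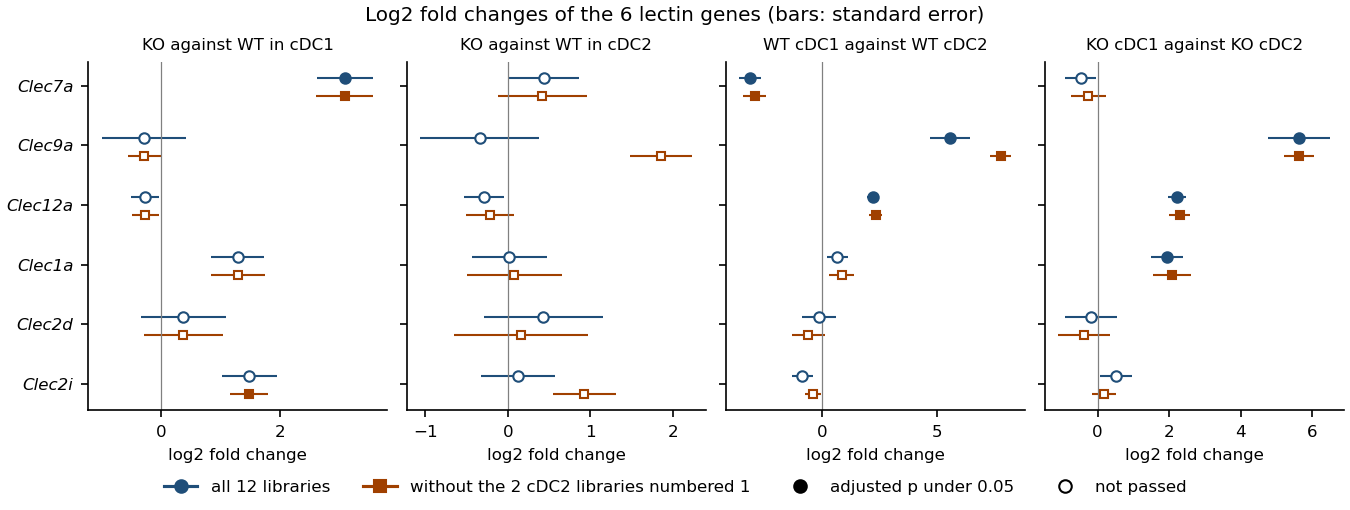
Log2 fold change of the 6 lectin genes (horizontal axis, bars are SE) in 4 comparisons, with all 12 libraries (circles) and without the 2 cDC2 libraries numbered 1 (squares), filled where the adjusted p is under 0.05. Clec7a passes in cDC1 at 3.10 either way, and Clec9a in cDC2 moves from -0.34 to 1.86.

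Over the members, KO and WT libraries did not overlap in cDC1 for 3 of 6 (Clec7a, Clec1a and Clec2i, all higher in KO), where 26.9% of all genes did not. In cDC2 none of the 6 was free of overlap, where 5.88% of genes were, and none was called by edgeR, where 0% of genes were; 271 of all genes had an unadjusted p under 0.05 there, and DESeq2 also called 0. The difference of effects called none of the members and 1.42% of genes. Between the WT subsets 3 of 6 members passed, Clec9a, Clec12a and Clec7a, where 21.2% of genes did, and the same 3 were free of overlap, where 32.7% were. Between the KO subsets 3 passed, Clec9a, Clec12a and Clec1a, where 16.9% of genes did, and 5 were free of overlap, where 47.8% were. Without the 2 cDC2 libraries numbered 1 the members called were 2 in cDC1 (8.88% of genes), 0 in cDC2 (0.898%), 1 for the difference of effects (2.47%), 3 between WT subsets (24.9%) and 3 between KO subsets (27.4%). Within replicates 2 and 3 they were 6 in cDC1 (47.8% of genes), 1 in cDC2 (7.72%), 4 for the difference (38.3%), 4 between WT subsets (47.5%) and 3 between KO subsets (49.2%). In cDC1 Clec9a and Clec12a were then lower in KO and the other members higher. Without cDC1 WT replicate 1, 4 members passed in cDC1, as did 22.3% of genes.

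Compared per gene length, 3 receptors overlapped at the top in KO cDC1, with Clec12a at 136, Clec7a at 134 and Clec9a at 131 CPM per kb. In WT cDC1 Clec12a (164 CPM per kb) and Clec9a (160 CPM per kb) led, and Clec7a was at 15.7 CPM per kb, below Clec2d at 22.1 CPM per kb. Clec7a overlapped with Clec2d there, but with no other neighbour in the order, and Clec12a overlapped with Clec9a. In cDC2 Clec7a led in either genotype, at 137 CPM per kb in WT and 186 CPM per kb in KO, with no library of the next gene reaching it. Clec12a and Clec2d came next and overlapped with each other, at 35.5 and 24.4 CPM per kb in WT and at 29 and 32.7 CPM per kb in KO. Clec1a was last in every group, from 0.687 to 2.65 CPM per kb, and overlapped with Clec9a only in WT cDC2.

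**Figure D4:**
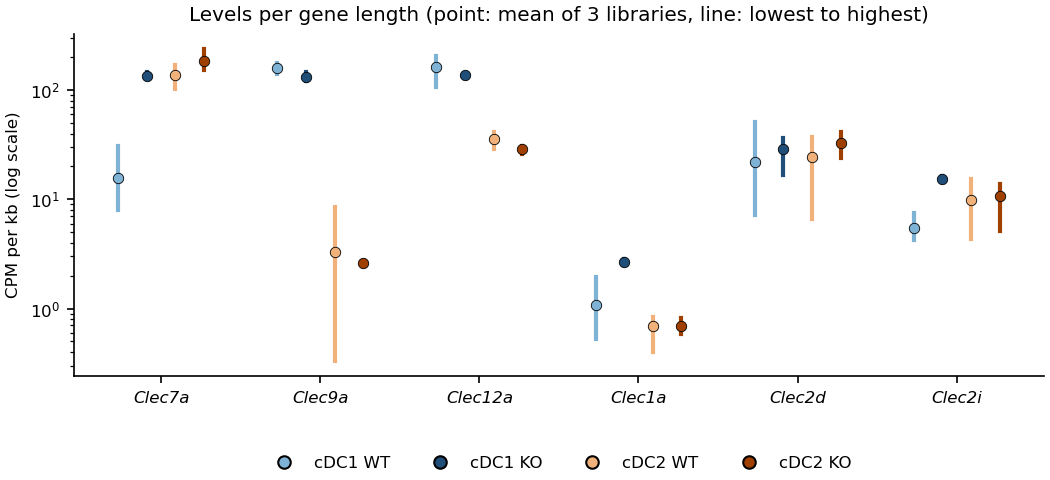
Level per kb of gene length (vertical log axis, CPM per kb) of the 6 lectin genes in the 4 groups, as the mean of 3 libraries with a line from the lowest to the highest. Clec7a in KO cDC1 is at 134 CPM per kb, beside Clec12a (136) and Clec9a (131), and at 15.7 in WT cDC1.

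Receptors of the Clec2 ligands rose in KO cDC1. Of 4 NKR-P1 genes tested in cDC1, 3 rose in KO (75%, against 5.32% of all genes) and 0 fell, with a median of 3.99 where the median of all genes was -0.00. This list was chosen with earlier results of these data known, so its share is a description and not an independent test. Klrb1b, the inhibitory receptor for the product of Clec2d, stood at 0.44, 0.51 and 0.0578 CPM in cDC1 WT and at 253, 178 and 178 CPM in cDC1 KO (9.19, SE 1.49, adjusted p = 0.00285). Klrb1f, a receptor for the product of Clec2i, was at 0.56 ± 0.113 and 3.93 ± 0.672 CPM (2.80, SE 0.51, adjusted p = 0.00595). Klrb1a was at 0.0716 ± 0.0264 and 2.81 ± 0.527 CPM (5.18, SE 1.05, adjusted p = 0.0122), and Klrb1c at 0.3 ± 0.236 and 2.11 ± 0.369 CPM did not pass (adjusted p = 0.186). In cDC2 Klrb1b stood at 16.7, 0.465 and 1.09 CPM under the WT label and at 0.302, 5.35 and 4.45 CPM under the KO label, so the libraries numbered 1 were the highest and the lowest of the 6. With all libraries none of the 4 genes passed in cDC2, and the KO effect on Klrb1b differed between the subsets by 10.10 (SE 1.78, adjusted p = 0.0119). Without the 2 cDC2 libraries numbered 1 Klrb1b rose in cDC2 as well (2.77, SE 0.52, adjusted p = 0.0455), and the difference was 6.42 (SE 0.76, adjusted p = 0.00179). In cDC1 all 4 genes then passed.

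Of the other lectin-like genes beside the members, 0 of 5 tested passed in KO cDC1, where 5.32% of all genes did. Clec1b, a platelet and dendritic cell receptor whose exons overlap those of Clec9a, went from 0.834 ± 0.341 to 6.37 ± 0.728 CPM (2.92, SE 0.82, adjusted p = 0.06), and passed without the 2 cDC2 libraries numbered 1 (2.93, adjusted p = 0.00693). Cd69, an early activation gene, was at 16.6 ± 9.08 and 43.1 ± 2.37 CPM (1.38, SE 0.55, adjusted p = 0.197). Clec2g and Clec2h were under 2 CPM in cDC1 and did not pass (-1.96 and -3.52). Between the WT subsets Cd69 was lower in cDC1 (-3.16, SE 0.59, adjusted p = 0.00191, and -3.47 without the 2 libraries).

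Signalling below Clec7a and Clec9a showed 1 rise among 16 genes in KO cDC1 (6.25%, near the 5.32% of all genes), with a median of 0.47. Clec7a and Clec9a reach Syk through a motif in their own tails. The gene that rose was Fcer1g, the Fc receptor gamma chain, an adaptor of Fc receptors and of lectins such as Dectin-2 that lack such a motif. It was at 21.7, 29.2 and 33.4 CPM in the WT libraries and 424, 373 and 416 CPM in the KO libraries (3.85, SE 0.30, adjusted p = 3.2e-05). Its effect differed from that in cDC2 by 3.72 (SE 0.40, adjusted p = 0.000842), and by 3.27 (adjusted p = 0.000465) without the 2 cDC2 libraries numbered 1. Syk averaged 76.6 ± 39.4 CPM in WT mice and 141 ± 15.3 CPM in KO mice (0.88, SE 0.38, adjusted p = 0.23), and Prkcd, a kinase between Syk and Card9, at 110 ± 69 and 243 ± 4.84 CPM (1.15, SE 0.36, adjusted p = 0.0927). The other genes of this list, Card9 among them, did not pass. In cDC2 0 of 16 passed, with or without those 2 libraries.

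Of 6 genes of inhibitory signalling, the kind that Clec12a uses, 2 rose in KO cDC1 (33.3%, against 5.32% of all genes) and 0 fell. The median change was 0.46. The phosphatase gene Ptpn6 (SHP-1) went from 149 ± 21.9 to 379 ± 40.1 CPM (1.35, SE 0.20, adjusted p = 0.00134), and the adaptor gene Dok3 from 0.689 ± 0.121 to 3.14 ± 0.396 CPM (2.18, SE 0.39, adjusted p = 0.00533). Lyn (0.53) and Csk (0.40) did not pass. Of 11 genes that Clec7a ligation is known to induce, 2 rose (18.2%, against 5.32% of all genes) and 0 fell. Their median change was 0.32. Both lists were chosen with earlier results of these data known, so their shares are descriptions and not independent tests. Tnf stood at 56.1, 53.5 and 48.6 CPM in the WT libraries and at 567, 324 and 335 CPM in the KO libraries (2.95, SE 0.51, adjusted p = 0.00416). Ptgs2, which encodes cyclooxygenase 2, went from 64.5 ± 47.9 to 277 ± 52.2 CPM (2.10, SE 0.42, adjusted p = 0.0109). Il6 (-0.94, adjusted p = 0.0855) and Il23a (3.75, adjusted p = 0.163) did not pass. No gene of either list passed in cDC2, with or without the 2 libraries numbered 1.

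**Figure D5:**
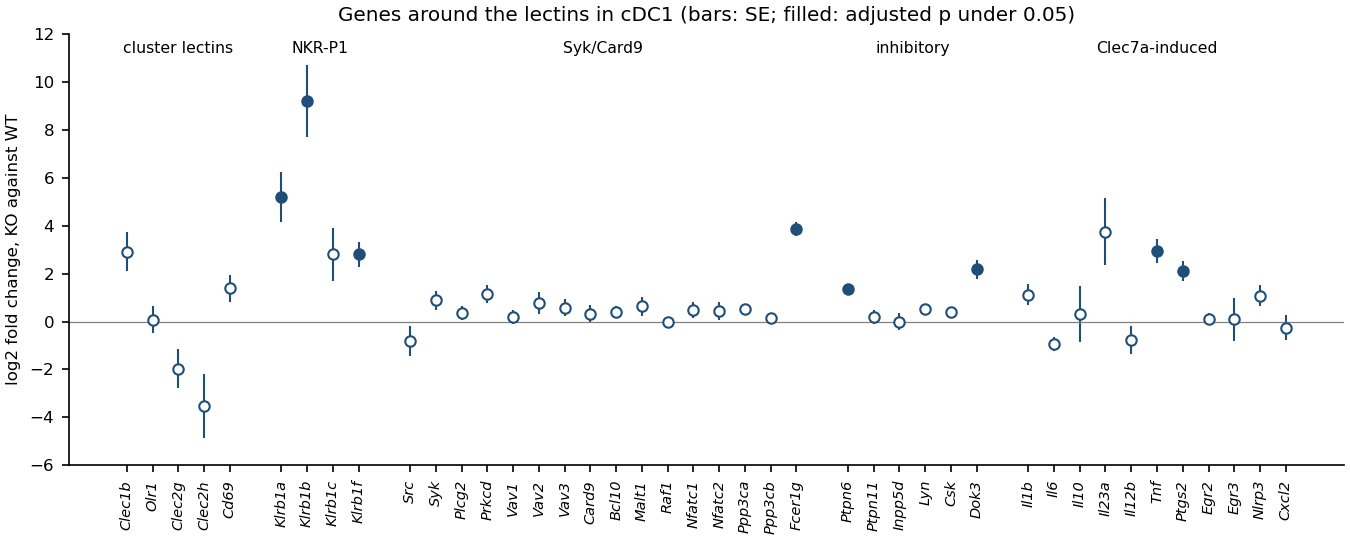
Log2 fold change of KO against WT in cDC1 (vertical axis, bars are SE) for the genes around the lectins, by list, filled where the adjusted p is under 0.05. The largest value is Klrb1b at 9.19, followed by Klrb1a at 5.18 and Fcer1g at 3.85.

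The genes most like each member over the 12 libraries were found by Pearson's r of log2 CPM among 9326 genes, as a description in which the libraries' depth and subset are shared. For Clec7a they were Slc15a3 (r = 0.987), a lysosomal peptide transporter, Ptchd1 (0.986) and Cdyl2 (0.985), and the most opposite was Armc8 (-0.986). For Clec9a they were Unc119b (0.994), Mpeg1 (0.991), which encodes perforin-2, and Zfp367 (0.990), with Nod1 (-0.979), a sensor of bacterial peptidoglycan, most opposite. Clec12a was most like Serpinf1 (0.993), Fbxo4 (0.991) and Aldh3b1 (0.989), and opposite to Sash1 (-0.987). Clec1a came nearest to Etfdh (0.971), Lmnb2 (0.953) and Galnt2 (0.944), and was opposite to Atg10 (-0.970). Clec2d came nearest to Srcap (0.981), Mdn1 (0.976) and Zfp335 (0.973), and was opposite to Sdcbp (-0.968). Clec2i had lower values, with Sfxn2 (0.916), Prg2 (0.913) and Nectin2 (0.899), and Nat9 most opposite (-0.953). Among the members Clec9a and Clec12a were most alike (r = 0.94), and Clec7a and Clec12a most opposite (-0.67).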

How the data were processed

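Per the submitters' processing notes, reads were assigned to genes with featureCounts on GRCm38 (mm10); no version or strand setting is given in the sources used here. The authors deposited raw counts of reads, by Entrez Gene identifier, for 12 libraries, with no normalization; gene lengths in bases come from the same table. RefSeq's GRCm38 annotation named 25275 of 27179 genes, and the 1904 others held 2.23% of reads. Groups came from the labels alone, and 0 per-sample columns went unused. GENCODE vM21 (GRCm38) gave exon overlaps and shared 50-base stretches.

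Counts were fitted with edgeR 4.0.16 in R 4.3.3: filterByExpr (13415 genes kept), TMM scaling, 4 group means over all 12 libraries, robust quasi-likelihood F tests, threshold 0.05 on the adjusted p. Each SE is the absolute log2 fold change divided by the root of F. Likeness used log2 CPM with a prior count of 2 among genes averaging at least 5 CPM. DESeq2 1.42.0 and further alternatives are given in the closing section. The code was tested on simulated data. Precision rests on the depth given above and n = 3. Each p value weighs a difference between group means against a spread between libraries that is estimated over all 4 groups. The cDC2 libraries numbered 1 therefore enter the tests in cDC1 too. Within a group each library came from its own mouse pool, and a pool is shared by a cDC1 and a cDC2 library.

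Residual correlations between same-numbered WT and KO libraries of cDC1 were 0.02, -0.07 and 0.11, and those of cDC2 -0.05, -0.05 and -0.06, so no replicate block was used between genotypes. Mouse pools pair the subsets by label, with same-pool correlations of -0.2, -0.11 and -0.07 in WT and 0.26, 0.14 and 0.14 in KO.

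The members, gene lists and markers were chosen with earlier results of these data known. Named genes are the members, and up to 4 per list by smallest p in cDC1 and up to 2 in other comparisons. They are also the 3 most alike and 1 most opposite per member, and up to 4 neighbours within 500 kb. Klri2, Klra17, Card9, S100a4, Klrk1, Ncr1, Cd8a, Irf8, Naaa, Gcsam, Wdfy4, Batf3, Ms4a1 and Treml4 were added as checks or after their values were seen. The level of 1 marker gene is not reported here.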

Additional observations from a re-analysis of the deposited data

How the results depend on the processing

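Of 612 member values recomputed under alternatives, 544 kept their direction and their side of the threshold. With the direction kept, 2 ceased to pass and 21 came to pass. The other 45 changed sign, and some of these passed, such as Clec9a in cDC2 within replicates 2 and 3 (1.76, adjusted p = 0.00232). The cause of these changes was not tested. The Clec7a call in cDC1 held in 20 of 20 alternatives. Those of Clec7a between the WT subsets, and of Clec9a and Clec12a between the subsets in both genotypes, held in 21 of 21. With 3 libraries a group, the SE in cDC1 was 0.72 for Clec2d, 0.71 for Clec9a, 0.47 for Clec7a and 0.24 for Clec12a. For the low-count members Clec1a and Clec2i it was 0.45 and 0.46. This limits what could be detected, most of all for Clec2d and Clec9a.

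Genes called in KO against WT in cDC1 numbered 714, and 1318 with DESeq2, 6438 within replicates 2 and 3, 1206 without both cDC2 libraries numbered 1, and 318 to 3052 leaving out 1 library, the highest without cDC1 WT replicate 1. Members called there were 1, and 2 with DESeq2, with only the groups compared, or without both cDC2 libraries numbered 1, 6 within replicates 2 and 3, and 1 to 4 leaving out 1 library. In cDC2, 0 genes became 1039 within replicates 2 and 3 and 122 without both libraries numbered 1, and 0 members became 1 within replicates 2 and 3. For the difference of effects, 190 genes became 480 with DESeq2, 303 with gene length offsets, 5157 within replicates 2 and 3, 336 without both cDC2 libraries numbered 1 and 110 to 501 leaving out 1 library. Members called there went from 0 to 1 with DESeq2 (Clec7a, 2.60) or length offsets (Clec7a, 2.66). Without both cDC2 libraries numbered 1 the 1 member called was Clec9a, in the other direction (-2.15), and Clec7a did not pass. Members called were 4 within replicates 2 and 3, and 0 to 1 leaving out 1 library. Between the WT subsets 2846 genes became 1537 with only the groups compared and 6391 within replicates 2 and 3. Between the KO subsets 2264 became 4172, 6620 and, without both cDC2 libraries numbered 1, 3716, with 1209 to 3382 leaving out 1 library.

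With the mouse pool as a replicate block the difference of effects was called in 116 genes and 1 member, Clec7a, and with the replicate number as a replicate block in 1 member, Clec7a (2.89, adjusted p = 0.0146). For Clec9a that difference was -0.48 with the number and -1.08 with the pool as a block, and for Clec2d it was 0.55 with the pool; the change of Clec9a in cDC2 was 0.13 with the number. The blocks changed no other call of a member. No pool block can be had between genotypes, since each pool has 1 genotype, and the fit to the compared groups alone gives no difference of effects.

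Other sign changes came on leaving out libraries numbered 1, on leaving out other libraries, or with other scaling or tests. For example, in cDC2 Clec1a was -0.28 without cDC2 WT replicate 2, and Clec2i was -0.23 without cDC2 WT replicate 3. Within replicates 2 and 3 Clec9a in cDC2 was 1.76 (adjusted p = 0.00232), and the difference of effects was -2.25 for Clec9a, -0.33 for Clec12a and 2.03 for Clec2d. Without both cDC2 libraries numbered 1 Clec9a in cDC2 was 1.86, and the differences were -2.15, -0.05 and 0.22. DESeq2 gave differences of -0.01 for Clec9a and -0.02 for Clec12a, and RLE scaling -0.02 for Clec12a. Gene length offsets gave -0.14 for Clec1a in cDC2, -0.02 for the difference of Clec9a, and 0.18 and 0.09 for Clec2d between the WT and the KO subsets. Leaving out 1 library, Clec2d in cDC1 ran from -0.04 to 1.95. In cDC2 Clec9a ran from -0.85 to 1.87, Clec1a from -0.28 to 0.21, Clec2d from -0.02 to 0.88 and Clec2i from -0.23 to 0.59. The differences of effects ran from -2.15 to 0.57 for Clec9a, -0.21 to 0.21 for Clec12a and -0.50 to 1.52 for Clec2d. Between the WT subsets Clec1a ran from -0.05 to 0.99 and Clec2d from -1.70 to 0.31, and between the KO subsets Clec2d from -0.38 to 0.09.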

Other observations

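Around the lectins, 39 annotated genes start between 500 kb before the first and 500 kb after the last member, and 27 were tested. In KO cDC1 5 of these rose and 0 fell (18.5%, against 5.32% of all genes). Klrd1, which encodes CD94, went from 7.02 ± 0.417 to 23.1 ± 5.5 CPM (1.71, SE 0.21, adjusted p = 0.000458), and Gm15987 from 0.639 ± 0.159 to 14 ± 2.91 CPM (4.44, SE 0.69, adjusted p = 0.00208), beside Klrb1b and Klrb1f. Without the 2 cDC2 libraries numbered 1, 9 rose and 1 fell there (37%, against 8.88%). In cDC2 0 of the 27 passed by edgeR, as did 0 of all genes; without those 2 libraries 4 rose and 2 fell (22.2%, against 0.898%), among them Klri2 and Klra17, on which the doubt about the 2 libraries rests. Between the WT subsets 2 were higher and 7 lower in cDC1 (33.3%, against 21.2% of all genes), with Klrd1 at -4.97 (SE 0.24, adjusted p = 8.8e-08). Without the 2 libraries 5 were higher and 7 lower (44.4%, against 24.9%). The KO effect on Klrd1 differed between the subsets by 2.05 (SE 0.29, adjusted p = 0.00325), and by 1.97 (adjusted p = 0.00634) without them.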
